A study of Arabidopsis thaliana with 8 samples.

Results

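The 9 loci followed here have established parts in leaf senescence and chlorophyll breakdown and were measured in the transcriptomes of *Arabidopsis* seedlings that differed in *POWERDRESS* (*PWR*) and in temperature. The loci were taken by name: the senescence-associated genes *SAG12* (AT5G45890), *SAG13* (AT2G29350), *SAG21* (AT4G02380) and *SAG101* (AT5G14930), the NAC transcription factors *ORE1* (AT5G39610) and *NAP* (AT1G69490), and the chlorophyll breakdown genes *SGR1* (AT4G22920), *PAO* (AT3G44880) and *NYC1* (AT4G13250). They are 9 of the 33602 genes in the count tables, and the list sets no threshold on a measured value. Of the 9, 8 had reads and passed the filter on low counts, whereas *SAG12* had 0 counts in all 8 libraries. RNA came from entire seedlings, 6 days old, of the wild type Col-0 and of the *pwr-2* mutant, a T-DNA insertion allele in the Col-0 background. All seedlings grew at 23 °C in short days with 8 h of light and 16 h of dark, and some were moved to 27 °C for 2 h before harvest. This gave 4 groups (Col-0 at 23 °C, Col-0 at 27 °C, *pwr-2* at 23 °C and *pwr-2* at 27 °C) with 2 biological replicates each. The labels give about 100 seedlings for a biological replicate and do not say how many entered each library.

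Leaf senescence is the ordered dismantling of a leaf, in which chlorophyll, proteins and lipids are broken down and their nutrients are exported. ORE1 and NAP are NAC transcription factors that promote it. NYC1 is a chlorophyll b reductase, SGR1 removes magnesium from chlorophyll a, and PAO opens the ring of pheophorbide a, the step after which the pigment loses its green colour. SAG12 is a cysteine protease found in senescing leaves, SAG13 is a short-chain dehydrogenase of the tropinone reductase-like type, SAG21 is a late embryogenesis abundant (LEA) protein of mitochondria, and SAG101 is a partner of the immune regulator EDS1. Several of these genes also respond to stress, to abscisic acid or to pathogens in tissue that is not ageing. PWR is a SANT domain protein that acts with the histone deacetylase HDA9.

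The 250 bases before the annotated start are shown for the 3 members with the largest rise at 27 °C in *pwr-2*, *SAG13*, *SAG21* and *NAP*, and for *NYC1*, which did not rise. Capitals mark the core letters ACGTG of the abscisic acid response element and TTGAC of the W-box, the site of WRKY factors, on either strand. ACGTG overlaps the G-box, CACGTG. The sequences are from the TAIR10.1 genome of RefSeq, read 5′ to 3′ on the strand of the gene, and lie at chr2:12600664-12600913 (plus strand, *SAG13*), chr4:1047106-1047355 (minus strand, *SAG21*), chr1:26121830-26122079 (plus strand, *NAP*) and chr4:7687007-7687256 (minus strand, *NYC1*).
SAG13: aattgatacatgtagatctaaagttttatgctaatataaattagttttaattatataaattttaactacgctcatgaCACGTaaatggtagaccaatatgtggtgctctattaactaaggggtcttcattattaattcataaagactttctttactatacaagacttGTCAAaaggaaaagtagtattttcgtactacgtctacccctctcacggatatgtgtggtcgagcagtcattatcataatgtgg
SAG21: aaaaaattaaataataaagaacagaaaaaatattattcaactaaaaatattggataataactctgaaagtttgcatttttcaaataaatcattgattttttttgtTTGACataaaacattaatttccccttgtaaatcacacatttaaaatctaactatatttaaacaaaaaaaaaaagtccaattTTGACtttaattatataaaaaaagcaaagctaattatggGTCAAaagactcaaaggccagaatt
NAP: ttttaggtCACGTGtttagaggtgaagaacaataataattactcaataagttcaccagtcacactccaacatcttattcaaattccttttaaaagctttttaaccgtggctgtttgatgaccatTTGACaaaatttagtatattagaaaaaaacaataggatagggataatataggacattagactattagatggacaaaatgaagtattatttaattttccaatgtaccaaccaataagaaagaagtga
NYC1: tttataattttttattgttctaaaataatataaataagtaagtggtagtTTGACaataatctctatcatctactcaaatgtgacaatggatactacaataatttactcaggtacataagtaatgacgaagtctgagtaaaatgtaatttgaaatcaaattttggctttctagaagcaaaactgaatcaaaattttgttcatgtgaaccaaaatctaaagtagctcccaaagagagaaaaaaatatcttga
*SAG13* held ACGTG 173 bases and TTGAC 83 bases before its start. *SAG21* held TTGAC 3 times, at 145, 64 and 25 bases. *NAP* held a G-box at 242 bases, which contains ACGTG on both strands, and TTGAC at 126 bases. *NYC1* held TTGAC at 201 bases and no ACGTG. Among the 27443 windows of 250 bases before annotated protein-coding genes, 22.9% held ACGTG, 6.49% held CACGTG and 44.9% held TTGAC, so these letters are common and each match is only a description. The letters GAANNTTC, part of a heat-shock element and found in 9.55% of the windows, were in none of the 9 members' windows.

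The libraries held 7379650 to 15733741 counted reads. The 2 Col-0 libraries at 23 °C were the least alike of any replicate pair (Pearson's r of log2 expression 0.838 across 19929 genes, against 0.919 to 0.954 in the other groups), and replicate 1 of that pair was the shallowest library. The share of counts from chloroplast and mitochondrial genes ranged from 0.0374% to 6.77%, and replicate 1 had the higher share in every group. *PWR* (AT3G52250) itself had 425 and 1218 counts in wild type against 143 and 174 in the mutant at 23 °C. At 27 °C it had 594 and 1290 against 144 and 223. The genotype labels thus held in every library, and this gene does not check the temperature or replicate labels. Levels below are CPM, counts scaled to a common library total, after correction for library composition by trimmed mean of M-values (TMM), and a fold change is a log2 value from edgeR's quasi-likelihood test with the replicate number as a block. Its SE is the size of the log2 value divided by the square root of the test's F statistic. That SE uses spread shared across genes and can be far smaller than the gap between the 2 replicate pairs. A gene passed the test, or was called, at a Benjamini-Hochberg adjusted p under 0.05 over all tested genes. A fitted value is given for a member where both replicate pairs moved the same way, and the pair values are given where they did not.

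Per kilobase of the deposited gene length, *SAG21* was the most abundant member over the 8 libraries (mean 121 ± 65.3 CPM per kb, SD, n = 8). *NYC1* followed at 84.1 ± 45.2 and *PAO* at 42.8 ± 13.1 CPM per kb. *SGR1* (10.2 ± 3.12), *SAG13* (8.37 ± 16.2), *ORE1* (7.19 ± 3.19), *SAG101* (4.16 ± 0.978) and *NAP* (2.29 ± 1.72) came after them. Neighbours among these differed by less than the larger of their SDs, apart from *SAG101* and *NAP*. The means of *SAG21* and *NYC1*, and of *NYC1* and *PAO*, also differed by less than the larger SD. The mean of *SAG13* rests on 1 library at 47.6 CPM per kb, and its median of 1.25 was below that of *NAP*, 1.88. *SAG13* varied most, with an SD of 2.84 on the log2 CPM scale, and *SAG101* least, with 0.33. A count of 0 for *SAG12* allows up to 0.403 CPM in the shallowest library and 0.185 CPM in the deepest, counting 3 reads as the limit and covering counting error only.

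**Figure D1:**
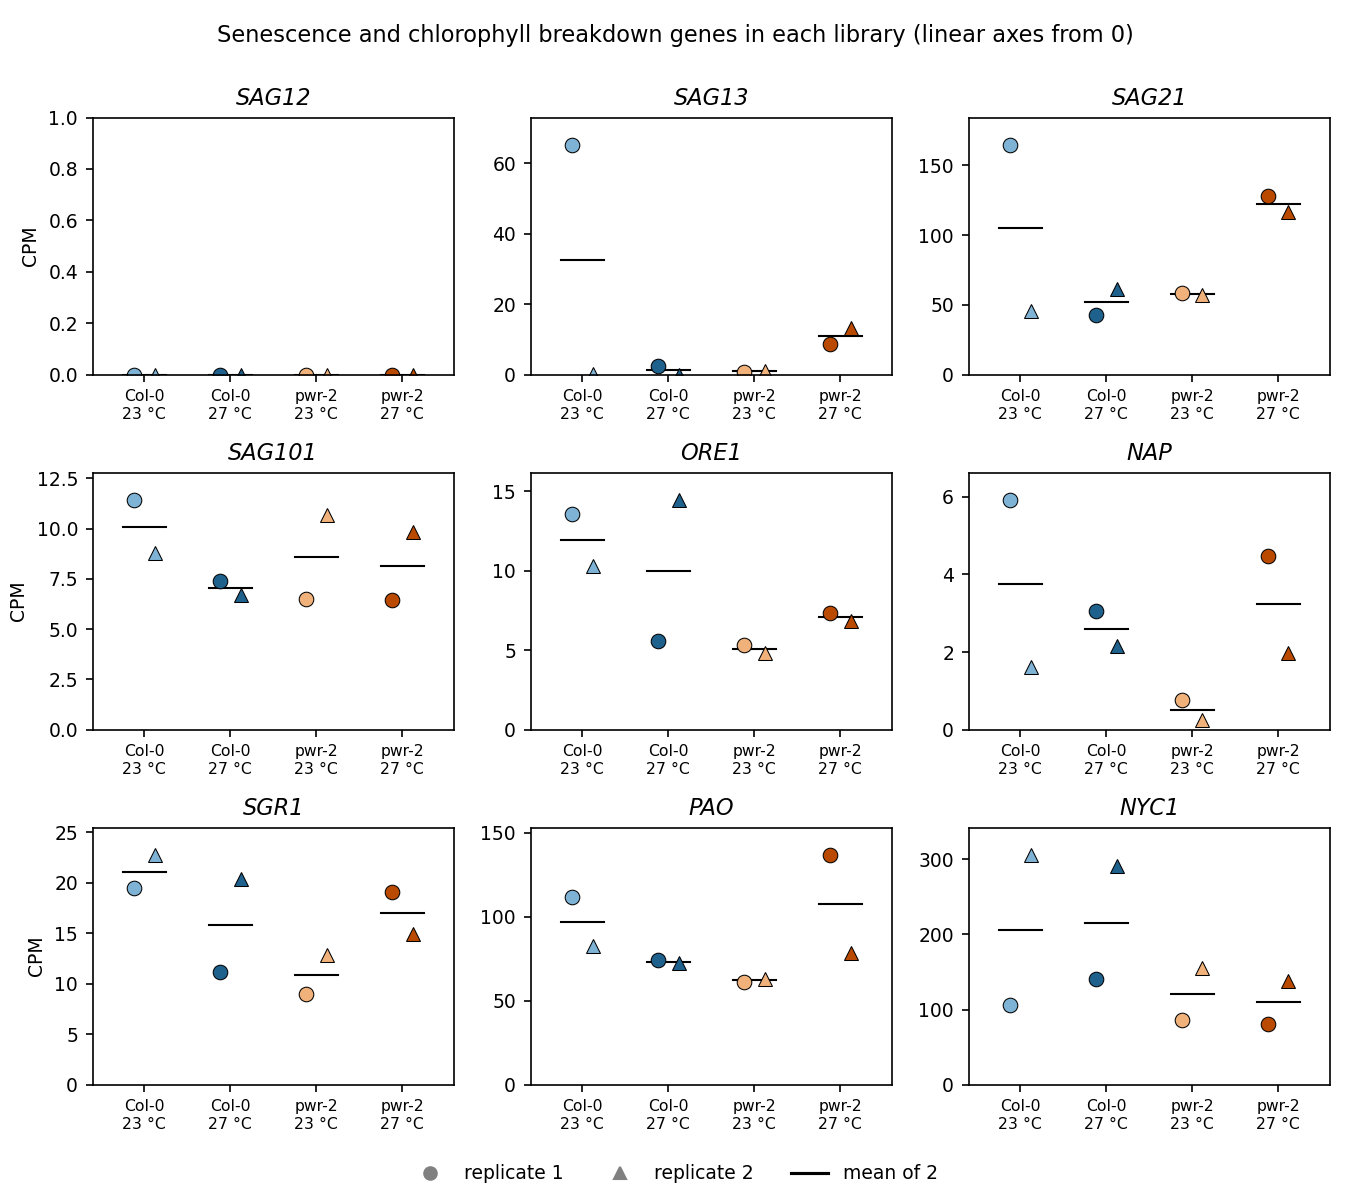
CPM (linear y axis from 0) of each of the 9 members in the 4 groups on the x axis, with circles for replicate 1, triangles for replicate 2 and a bar for the mean of 2. SAG13 reaches 65.1 CPM in 1 Col-0 library at 23 °C, SAG21 is at 117 and 128 CPM in pwr-2 at 27 °C, NYC1 is higher in replicate 2 than in replicate 1 of every group, and SAG12 is at 0 throughout.

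The clearest differences among the members were in *pwr-2* between 23 °C and 27 °C. Of the 8 tested members, 6 of them, *SAG13*, *SAG21*, *ORE1*, *NAP*, *SGR1* and *PAO*, were higher in both *pwr-2* libraries at 27 °C than in both at 23 °C. Over all tested genes 17.3% showed such a pattern. *SAG13* alone passed the test, as did 0.42% of the 19050 genes tested. The median log2 fold change of the 8 members was 0.68, beside 0.01 for all genes. In Col-0 the same shift left none of the 8 members past the test, and 7 of the 8 fitted values were below 0 (median -0.44, beside -0.0024 for all genes).

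*SAG13* was nearly silent in *pwr-2* at 23 °C, with 8 and 16 counts (0.866 and 1.04 CPM), and had 106 and 147 counts (8.76 and 13.3 CPM) at 27 °C. The groups did not overlap, and the rise was 11.5-fold (log2 3.52, SE 0.29, adjusted p = 0.0384, edgeR). Without the replicate block its value was 3.50 with an adjusted p of 0.433, and in a fit of all 8 libraries it was 3.83 with an adjusted p of 0.918. Over all alternatives other than leaving out a library the adjusted p ranged from 4.951e-07 to 0.918. With 1 of the 4 *pwr-2* libraries left out and no block, the value stayed between 3.17 and 3.76. With 1 of the 8 left out and the block kept, it ran from 0.47 without *pwr-2* 27 °C replicate 2 to 6.51 without *pwr-2* 23 °C replicate 2, and also moved to 5.47 without *pwr-2* 27 °C replicate 1, with no adjusted p under 0.05 in these fits. That block is shared with Col-0, where *SAG13* differed far more between the replicates.

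In Col-0 *SAG13* split by replicate rather than by temperature. At 23 °C it had 485 counts (65.1 CPM) in replicate 1 and 2 counts (0.124 CPM) in replicate 2. At 27 °C it had 33 counts (2.39 CPM) in replicate 1 and 1 count (0.0634 CPM) in replicate 2. The highest and the 2 lowest of the 8 libraries for this gene are thus all Col-0. The shift in Col-0 gave log2 -4.56 (SE 0.58, adjusted p = 0.943, edgeR), but its 2 pairs were far apart at -4.68 and -0.35. The fitted value became 2.68 in the 8-library fit without Col-0 23 °C replicate 1 and 3.23 in the 3 other Col-0 libraries. At 27 °C both *pwr-2* libraries lay above both Col-0 libraries (log2 3.62, SE 1.07, adjusted p = 0.164). In the 3 other libraries this value became 7.24 without Col-0 27 °C replicate 1 and 2.20 without Col-0 27 °C replicate 2, and in the 8-library fit it ran from 1.96 without *pwr-2* 27 °C replicate 2 to 6.92 without *pwr-2* 27 °C replicate 1. The pair differences between genotypes at 27 °C were 1.81 and 5.92, and those at 23 °C pointed in opposite directions, at -5.99 and 2.09. No stretch of 90 bases of *SAG13* exons, the read length, occurs elsewhere in the nuclear genome.

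*SAG21* had 544 and 882 counts (58.9 and 57.4 CPM) in *pwr-2* at 23 °C and 1546 and 1294 counts (128 and 117 CPM) at 27 °C. The groups were well apart and the fitted difference was log2 1.07 (SE 0.15), just short of the threshold (adjusted p = 0.0562). In Col-0 it had 1225 and 734 counts (164 and 45.4 CPM) at 23 °C and 586 and 966 counts (42.5 and 61.2 CPM) at 27 °C. Here the first library was high and the other 3 were low, and the pairs moved in opposite directions at -1.95 and 0.43. At 27 °C *SAG21* was higher in both *pwr-2* libraries (log2 1.25, SE 0.30, adjusted p = 0.110). The 2 genotypes overlapped at 23 °C, with pair differences of -1.48 and 0.34. The annotation places a miRNA gene, AT4G04125, over 180 bases of *SAG21* on the same strand, and it has no row of its own in the count tables, so reads from the shared bases could belong to either.

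Among the 5 members whose replicate pairs agreed at 23 °C, *NAP* was the lowest in *pwr-2* relative to Col-0. It had 44 and 26 counts (5.91 and 1.61 CPM) in Col-0 and 7 and 4 counts (0.758 and 0.260 CPM) in *pwr-2*. Both mutant libraries lay below both Col-0 libraries (log2 -2.79, SE 0.55), at an unadjusted p of 0.00681 and an adjusted p of 0.976 in edgeR. At 27 °C it had 42 and 34 counts (3.04 and 2.15 CPM) in Col-0 and 54 and 22 counts (4.47 and 1.99 CPM) in *pwr-2*, and the genotypes overlapped. *NAP* thus differed by log2 2.68 between temperatures in *pwr-2* (SE 0.42, adjusted p = 0.0629), and the 2 pairs gave 2.34 and 2.36. In Col-0 its pairs gave -0.92 and 0.39. All of these values rest on 4 to 54 counts a library.

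*ORE1* had 101 and 167 counts (13.6 and 10.3 CPM) in Col-0 at 23 °C and 49 and 74 counts (5.30 and 4.81 CPM) in *pwr-2*. The mutant was lower in both libraries (log2 -1.23, SE 0.31, adjusted p = 0.976). At 27 °C the Col-0 libraries were far apart, with 77 and 228 counts (5.58 and 14.4 CPM), and the *pwr-2* libraries, with 89 and 76 counts (7.36 and 6.86 CPM), lay between them. The difference between temperatures in *pwr-2* was log2 0.49 (SE 0.23, adjusted p = 0.344).

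*SAG101* was the steadiest member. It had 85 and 142 counts (11.4 and 8.78 CPM) in Col-0 and 60 and 164 counts (6.50 and 10.7 CPM) in *pwr-2* at 23 °C. The libraries at 27 °C held 102 and 106 counts (7.39 and 6.72 CPM) in Col-0 and 78 and 109 counts (6.45 and 9.84 CPM) in *pwr-2*. The genotypes overlapped at both temperatures, and in *pwr-2* the shift gave log2 -0.07 (SE 0.20, adjusted p = 0.897), a sign that turned in 4 of the 12 fits with 1 library left out. In Col-0 the shift gave log2 -0.51 (SE 0.26, adjusted p = 0.943).

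*SGR1* had 145 and 368 counts (19.5 and 22.8 CPM) in Col-0 at 23 °C and 83 and 197 counts (8.99 and 12.8 CPM) in *pwr-2*. The mutant was lower in both pairs (log2 -0.97, SE 0.27, adjusted p = 0.976). At 27 °C it had 154 and 322 counts (11.2 and 20.4 CPM) in Col-0 and 231 and 165 counts (19.1 and 14.9 CPM) in *pwr-2*, and the genotypes overlapped. The shift gave log2 0.63 in *pwr-2* (SE 0.25, adjusted p = 0.280) and -0.48 in Col-0 (SE 0.26, adjusted p = 0.943).

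*PAO* was the most abundant chlorophyll breakdown member per kb after *NYC1*. It had 832 and 1331 counts (112 and 82.3 CPM) in Col-0 at 23 °C and 566 and 969 counts (61.3 and 63.0 CPM) in *pwr-2* (log2 -0.63, SE 0.31, adjusted p = 0.976). At 27 °C it had 1026 and 1139 counts (74.4 and 72.2 CPM) in Col-0 and 1652 and 868 counts (137 and 78.3 CPM) in *pwr-2* (log2 0.49, SE 0.31, adjusted p = 0.514). The groups did not overlap at either temperature, with the mutant below Col-0 at 23 °C and above it at 27 °C, although 1 of the *pwr-2* libraries at 27 °C was barely above Col-0. The shift gave log2 0.73 in *pwr-2* (SE 0.23, adjusted p = 0.202) and -0.40 in Col-0 (SE 0.24, adjusted p = 0.943). AT3G44870 overlaps *PAO* by 11 bases on the same strand and had 4 counts over the 8 libraries.

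*NYC1* was the only tested member lower in *pwr-2* in both replicate pairs at both temperatures. It had 790 and 4944 counts (106 and 306 CPM) in Col-0 and 800 and 2383 counts (86.6 and 155 CPM) in *pwr-2* at 23 °C, and 1936 and 4587 counts (140 and 291 CPM) in Col-0 and 985 and 1525 counts (81.4 and 138 CPM) in *pwr-2* at 27 °C. Replicate 2 exceeded replicate 1 in all 4 groups. Within each replicate number *pwr-2* was the lower genotype at both temperatures. The difference was log2 -0.64 at 23 °C (SE 0.38, adjusted p = 0.976), -0.94 at 27 °C (SE 0.29, adjusted p = 0.173) and -0.79 averaged over the temperatures (SE 0.19, adjusted p = 0.194). The shift in *pwr-2* gave log2 -0.13 (SE 0.16, adjusted p = 0.712), and in Col-0 its pairs gave 0.40 and -0.07. At 27 °C the chlorophyll b reductase gene was thus lower and the *PAO* gene higher in *pwr-2*, and neither passed the test.

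**Figure D2:**
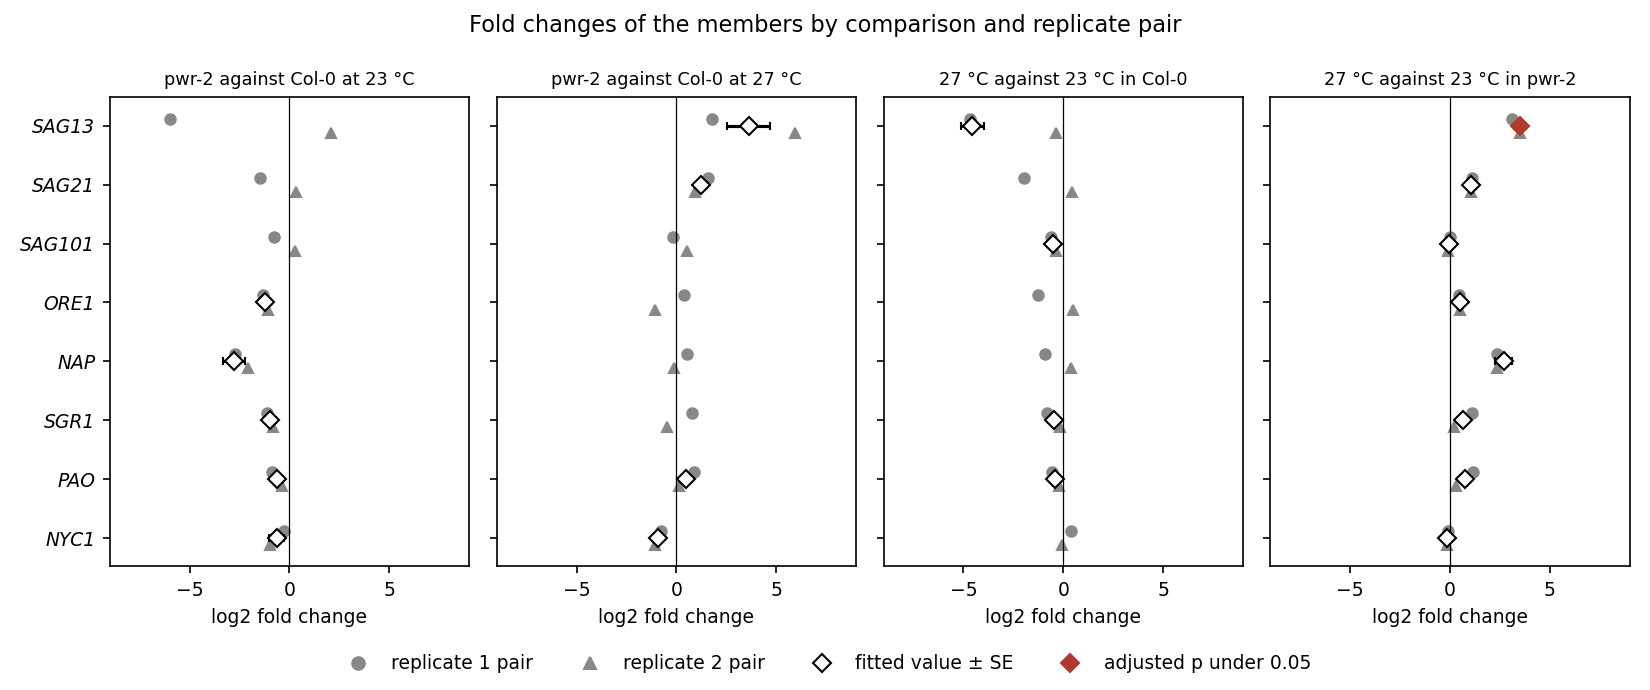
Log2 fold change (x axis) of the 8 tested members (y axis) in the 4 comparisons of 2 groups, with circles and triangles for the replicate 1 and replicate 2 pairs and diamonds with SE bars for the fitted value where both pairs had 1 sign. The SE comes from the test statistic and not from the spread of the 2 pairs. Red marks an adjusted p under 0.05, which SAG13 alone reached, at 3.52 in pwr-2 between temperatures. The pairs of SAG13 lie at -5.99 and 2.09 between the genotypes at 23 °C.

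The first comparison asked how *pwr-2* differed from Col-0 in seedlings kept at 23 °C. All 8 fitted member values were below 0, with a median of -0.81 beside -0.02 for all genes, and 5 members were lower in both replicate pairs, as were 26.3% of all genes. *ORE1*, *NAP*, *SGR1* and *PAO* were lower in both mutant libraries than in either Col-0 library, a pattern held by 13.9% of all genes. The libraries of Col-0 differed from each other here. The mean log2 level of the 9 members, relative to each gene's mean over the 8 libraries, was 0.996 and -0.22 in the Col-0 libraries and -0.63 and -0.51 in the *pwr-2* libraries. Without Col-0 23 °C replicate 1 the median was -0.70 and 6 of the 8 members were below 0. Seed markers had the members' sign at 23 °C, with 5 of 5 tested below 0 (median -3.20, and -0.19 without that library). All 8 root markers were above 0 (median 0.50, and 0.19 without that library). At 27 °C 5 of 5 tested seed markers were below 0 (median -1.49), as were 3 of 3 in the shift in *pwr-2* (median -0.24). In both of these 6 of the 8 members were above 0. The part of seed and root in the members' values was not tested. None of the 8 members passed the test, nor did any of the 19170 genes (0%). At an unadjusted p under 0.05 edgeR gave 868 genes (4.53%), 3 of them members, and DESeq2 called 51 genes and no member. The same question at 27 °C gave 0 of 8 members called, where 1.05% of 19324 genes were (160 higher and 42 lower in *pwr-2*). *SAG13*, *SAG21* and *PAO* were higher and *NYC1* was lower without overlap, and 40.2% of all genes did not overlap there in one direction or the other. DESeq2 called 931 of the 19324 genes at 27 °C, 2 of them members. These were *SAG13* (log2 4.10, adjusted p = 0.000444) and *SAG21* (log2 1.27, adjusted p = 0.0279).

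The shift in Col-0 gave no call among the 8 members or among all 19386 genes (0%) in edgeR, with 756 genes (3.9%) and 1 member at an unadjusted p under 0.05. DESeq2 called 37 genes there, *SAG13* among them (log2 -4.33, adjusted p = 3.051e-05). The comparison at 23 °C shares its Col-0 libraries with the shift in Col-0 and its *pwr-2* libraries with the shift in *pwr-2*. The comparison at 27 °C likewise shares its Col-0 and its *pwr-2* libraries with these shifts. Their values are therefore given side by side and are not independent. Low *pwr-2* values of *ORE1*, *NAP*, *SGR1* and *PAO* at 23 °C thus enter both their genotype difference there and their shift in *pwr-2*. Without the replicate block no gene was called in any of the 4 comparisons, where 202 were called at 27 °C and 80 in *pwr-2* with it.

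Whether the shift acted differently in the 2 genotypes was tested as an interaction across all 8 libraries. Of the 8 members, 7 had a positive interaction, meaning a larger rise or smaller fall in *pwr-2*, and in each of these 7 both replicate numbers gave that sign, as they did for 28.7% of all genes. The median was 1.13, beside -0.01 for all genes. *NAP* had log2 2.97 (SE 0.67, unadjusted p = 0.00455), *SAG21* 1.95 (SE 0.79), *SGR1* 1.13 (SE 0.45) and *PAO* 1.13 (SE 0.38), and *NYC1* alone was below 0 at -0.27 (SE 0.37). *SAG13* had 8.11 (SE 2.87), a value that was 0.83 without Col-0 23 °C replicate 1. That of *SAG21* was 0.82 without the same library and 2.81 without Col-0 23 °C replicate 2, and that of *SGR1* was 0.68 without *pwr-2* 27 °C replicate 1 and 1.57 without *pwr-2* 27 °C replicate 2. None passed the test, every adjusted p among the 8 members was at or above 0.948, and no gene of 19936 did (0%, with 915 at an unadjusted p under 0.05 and 25 called by DESeq2). Averaged over temperatures *NAP* was lower in *pwr-2* by log2 -1.30 (adjusted p = 0.199) and *ORE1* by -0.85 (adjusted p = 0.265). No member and no gene was called for the average effect of genotype or of temperature in edgeR (0%, with 3474 and 758 genes at an unadjusted p under 0.05), whereas DESeq2 called 925 and 26 genes, *NYC1* among the first.

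*SAG13* sits in a row of tropinone reductase-like genes, all on the plus strand of chromosome 2, with AT2G29290 to AT2G29340 before it and AT2G29360 and AT2G29370 after it. Most of these 8 neighbours are annotated as NAD(P)-binding Rossmann-fold proteins. At 27 °C all 8 were lower in *pwr-2* in both replicate pairs, as were 32.2% of all genes, with a median of -1.56, and none was called. AT2G29290 was lowest, with 748 and 1778 counts (54.2 and 113 CPM) in Col-0 and 218 and 214 counts (18.0 and 19.3 CPM) in *pwr-2* (log2 -2.08, SE 0.33, adjusted p = 0.0519). AT2G29300 went from 15.0 and 50.9 CPM in Col-0 to 10.6 and 6.14 CPM in *pwr-2* (log2 -1.78, SE 0.61, adjusted p = 0.212). At 23 °C all 8 were below 0 in *pwr-2* as well (median -0.59), 4 of them in both replicate pairs, as were 26.3% of all genes. Without Col-0 23 °C replicate 2 that median was 0.16, with 5 of the 8 above 0. In *pwr-2* the shift left 3 of the 8 above 0 and 5 below (median -0.35), among them AT2G29290 at -0.90 (adjusted p = 0.0747) and AT2G29310 at -0.74 (adjusted p = 0.111). In the Col-0 library with 485 counts of *SAG13*, AT2G29290 had its lowest level of all 8 libraries, 11.8 CPM.

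**Figure D3:**
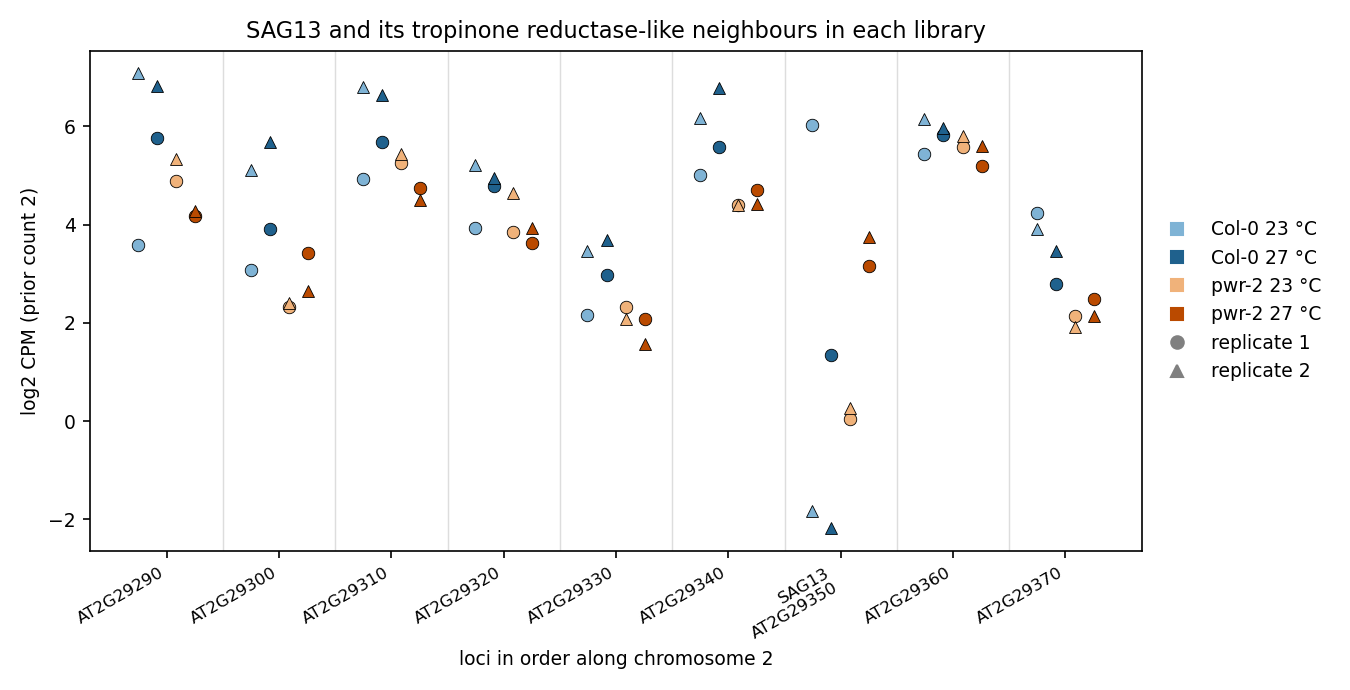
Log2 CPM (y axis, prior count 2) of SAG13 and its 8 tropinone reductase-like neighbours, in their order along the chromosome on the x axis, with colours for the 4 groups, circles for replicate 1 and triangles for replicate 2. At 27 °C the pwr-2 points lie above the Col-0 points for SAG13 only, and below them in both replicate pairs for all 8 neighbours.

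SAG21 has 3 relatives among the LEA proteins of its type. AT3G53770 had 0 counts in every library. *DI21* (AT4G15910) had 157 and 287 counts in *pwr-2* at 23 °C and 1135 and 525 counts at 27 °C, a difference of log2 1.89 (SE 0.29, adjusted p = 0.0619), and was above Col-0 at 27 °C by 1.06 (adjusted p = 0.110). *LEA3* (AT1G02820) gave -0.01 (adjusted p = 0.985) and -0.91 (adjusted p = 0.157) in these comparisons. *DI21* thus had the sign of *SAG21* in both, and *LEA3* did not.

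Among 12 other genes listed with chlorophyll breakdown, 1 was called in *pwr-2* between temperatures, as were 0.42% of all genes, and none between genotypes. The called gene, AT2G25625, entered the list under the name *CV* and has no symbol in the annotation used here. Its product name there, a histone deacetylase-like protein, states no part in chlorophyll breakdown. Whether that product name holds was not tested. It rose from 8.77 and 3.45 CPM to 48.0 and 18.5 CPM (log2 2.43, SE 0.16, adjusted p = 0.0384). Its Col-0 libraries again split by replicate, with 85.8 and 1.11 CPM at 23 °C and 13.3 and 0.824 CPM at 27 °C. At 27 °C it lay 2.91 above Col-0 on the log2 scale (SE 0.61, adjusted p = 0.0837). *MES16*, an esterase that acts on chlorophyll catabolites, had 16.0 and 34.4 CPM in Col-0 at 27 °C and 2.89 and 1.08 CPM in *pwr-2* (log2 -3.61, SE 0.61, adjusted p = 0.0583). *CYP89A9*, a cytochrome P450 of the same route, had 6.28 and 6.83 CPM in *pwr-2* at 23 °C and 36.8 and 12.8 CPM at 27 °C (log2 1.72, SE 0.40, adjusted p = 0.119). Of the 12, 8 were above 0 in this shift with a median of 0.33, where 50.9% of all genes were above 0.

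None of the 13 genes of chlorophyll synthesis was called. At 23 °C all 13 were above 0 in *pwr-2* (median 0.65), 7 of them in both replicate pairs, as were 24.9% of all genes. Their summed level was 4495 and 11425 CPM in Col-0 and 11603 and 9828 CPM in *pwr-2*, so 1 Col-0 library was low, and without it 9 of the 13 were above 0 (median 0.18). At 27 °C 6 of the 12 tested were above 0 and 6 below, with a median of 0.0005. In the shift in *pwr-2*, which shares the mutant libraries at 23 °C, all 13 were below 0 (median -0.32), 11 of them in both pairs, as were 31.2% of all genes. *PORA*, a protochlorophyllide oxidoreductase of dark-grown seedlings, had 1.73 and 2.15 CPM in *pwr-2* at 23 °C and 0.331 and 0 CPM at 27 °C (log2 -3.46, adjusted p = 0.134), at 0 to 33 counts a library. *PORB*, the related enzyme, had 715 and 1285 CPM at 23 °C and 522 and 787 CPM at 27 °C (log2 -0.58, adjusted p = 0.131), and lay above Col-0 at 27 °C by 0.87 (adjusted p = 0.356). *CHLM*, a methyltransferase, was at -0.67 between genotypes at 27 °C (adjusted p = 0.373).

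Of 19 other senescence-associated and recycling genes, 2 were called higher in *pwr-2* at 27 °C, as were 0.828% of all genes. *SAG29* (also *SWEET15*, a sucrose transporter) had 13.5 and 5.07 CPM in Col-0 and 294 and 118 CPM in *pwr-2* (log2 4.48, SE 0.32, adjusted p = 0.0217). *SAG113* (also *HAI1*, a protein phosphatase of abscisic acid signalling) had 7.61 and 2.91 CPM in Col-0 and 90.3 and 34.1 CPM in *pwr-2* (log2 3.54, SE 0.28, adjusted p = 0.0233). Both exceeded every Col-0 library there, but Col-0 23 °C replicate 1 had 178 CPM of *SAG29* and 52.6 CPM of *SAG113*. In the shift in *pwr-2*, where 0.367% of all genes were called higher, 2 of the 19 were, *SAG113* (log2 2.52, SE 0.18, adjusted p = 0.0384) and *YLS9*, a gene induced in yellowing leaves (log2 1.97, SE 0.16, adjusted p = 0.0384). For *YLS9*, replicate 1 minus replicate 2 in Col-0 was log2 4.19 at 23 °C and -1.28 at 27 °C. The list as a whole had 16 of 19 above 0 in the shift in *pwr-2* with a median of 0.50, where 50.9% of all genes were above 0.

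Of 27 senescence regulators 1 was called, in the shift in *pwr-2*, where 0.42% of all genes were. *WRKY70*, a factor known to delay senescence and to act in salicylic acid responses, rose from 4.98 and 4.29 CPM to 22.2 and 22.2 CPM in *pwr-2* (log2 2.27, SE 0.19, adjusted p = 0.0384), and stood 2.23 above Col-0 at 27 °C (adjusted p = 0.0667). Its close relative *WRKY54* had 2 and 4 counts at 23 °C and 14 and 28 counts at 27 °C (log2 2.94, SE 0.56, adjusted p = 0.0871). *JUB1*, a NAC factor that delays senescence, was 3.40 above Col-0 at 27 °C (SE 0.69, adjusted p = 0.0804). The Col-0 libraries of these genes split by replicate too. For *JUB1*, replicate 1 minus replicate 2 in Col-0 was log2 6.09 at 23 °C and 2.70 at 27 °C. The same differences were 4.03 and 1.34 for *WRKY70*, and 2.13 and 3.21 for *WRKY54*. The list had 23 of 27 values above 0 in the shift in *pwr-2*, with a median of 0.55, where 50.9% of all genes were above 0. It mixes factors that delay senescence with others, so a shared sign gives no single direction for senescence.

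The EDS1 family, which includes the partner of SAG101, and its helper receptors gave no call in any comparison. Of these 8 genes 6 were above 0 in the shift in *pwr-2* (median 0.31), where 50.9% of all genes were. The 2 furthest from 0 were AT5G66910 at 0.72 (adjusted p = 0.207) and *ADR1* at 0.71 (adjusted p = 0.151). At 27 °C AT3G48080 was at -1.17 (adjusted p = 0.302) and AT5G66900 at -0.50 (adjusted p = 0.452) relative to Col-0.

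**Figure D4:**
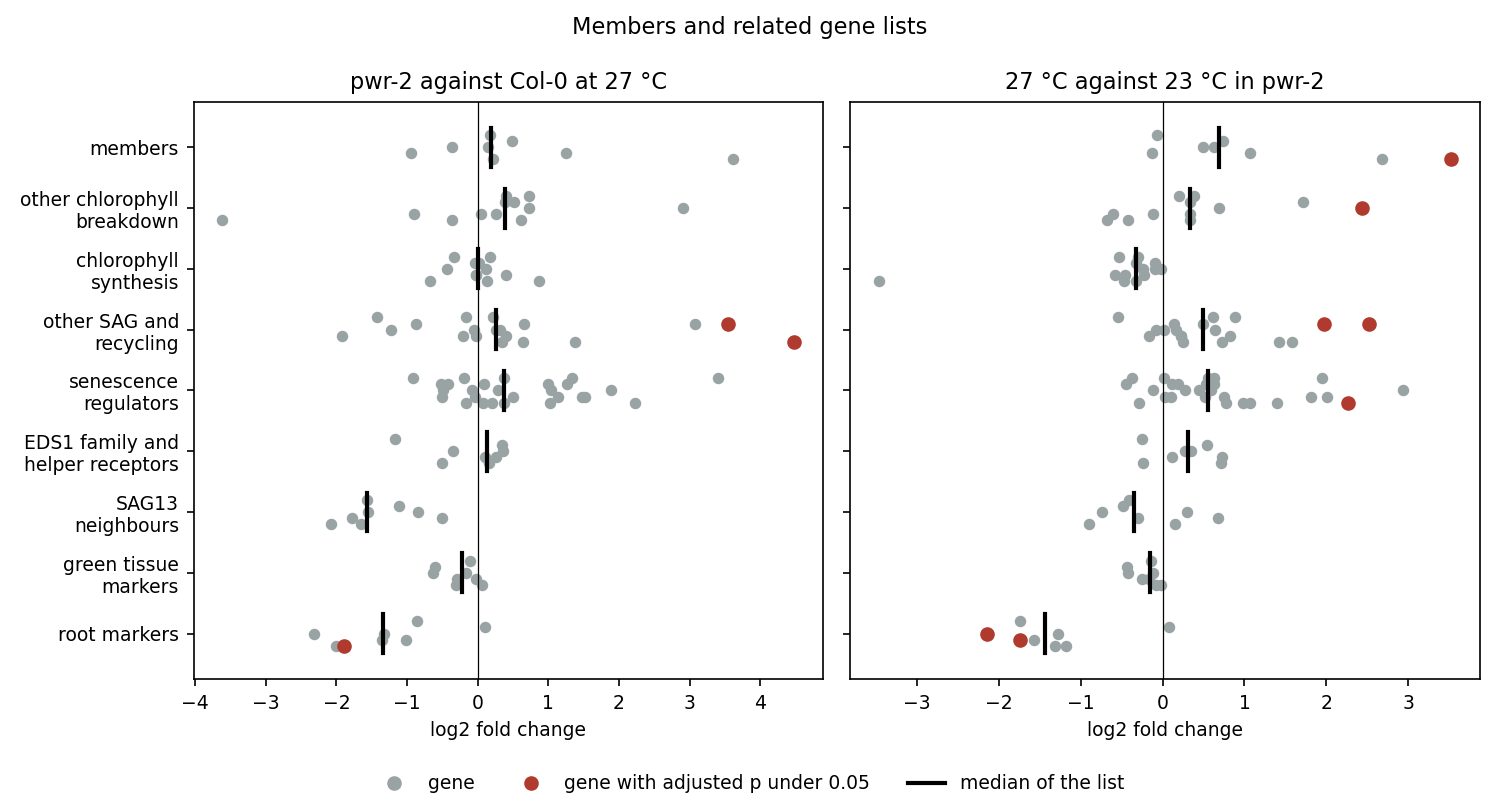
Log2 fold change (x axis) of every tested gene in 9 lists (y axis) for the genotypes at 27 °C (left) and between temperatures in pwr-2 (right), with a bar for the median of each list and red for an adjusted p under 0.05. The members' median is 0.20 on the left and 0.68 on the right, the SAG13 neighbours' is -1.56 on the left, and root markers have the lowest median on the right, -1.44.

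The whole seedlings held green tissue and root, and markers of root moved with these comparisons. The summed level of 8 root markers was 82.1 and 46.9 CPM in *pwr-2* at 27 °C, against 129 and 234 CPM in Col-0 at 27 °C, 209 and 135 CPM in *pwr-2* at 23 °C, and 61.5 and 225 CPM in Col-0 at 23 °C. In the shift in *pwr-2* 7 of the 8 were below 0 (median -1.44), where *TIP2;3*, an aquaporin, fell by 2.14 (adjusted p = 0.0451) and *PHT1;1*, a phosphate transporter, fell by 1.74 (adjusted p = 0.0384) on the log2 scale. At 27 °C *CASP1*, an endodermis gene, was lower in *pwr-2* by -1.89 (adjusted p = 0.0468), and 7 of the 8 were below 0 (median -1.34). The 8 green tissue markers differed less, with summed levels of 36857 to 69143 CPM over the libraries, and their sign differed between comparisons. In the shift in *pwr-2* all 8 were below 0 (median -0.15), 7 of them in both replicate pairs, as were 31.2% of all genes. At 27 °C 7 of the 8 were below 0 (median -0.23), 6 of them in both pairs, as were 32.2% of all genes. All 8 were above 0 in *pwr-2* at 23 °C (median 0.29), 1 of them in both pairs. All 8 were also above 0 in the shift in Col-0 (median 0.35), 2 of them in both pairs. Without Col-0 23 °C replicate 1 these 2 medians were 0.16 and 0.21. The summed level of 6 seed markers ranged from 2.99 CPM in *pwr-2* 23 °C replicate 2 to 487 CPM in Col-0 23 °C replicate 1, and 2 of the 6 were at 0 in the former. No defining marker of green tissue or root was at 0 in any library. The part of tissue make-up in the members' values was not tested, and in bulk RNA fewer cells of a type cannot be told apart from less RNA per cell.

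Across the 8 libraries *SAG13* and *SAG21* had the highest correlation of any 2 members (Pearson's r = 0.85, n = 8 libraries), *ORE1* and *SGR1* followed (0.82), then *NAP* and *PAO* (0.80), and *SAG13* and *NYC1* ran opposite (-0.69). These are descriptions over libraries that share groups, replicate numbers and depth. The genes most like each member by the same measure were *ASB1* and AT1G54890 for *SAG13* (0.99 each), AT2G18690 (0.99) and *TCH3* (0.98) for *SAG21*, and AT1G33360 and *ASG1* (0.99 each) for *NYC1*. *BBX32* (0.98) and *BGLU5* (0.97) were nearest to *NAP*, AT4G01610 and *ABCG15* (0.96 each) to *ORE1*, and AT1G17330 and *FHL* (0.95 each) to *SAG101*. AT5G02170 and *ZF14* (0.96 each) were nearest to *SGR1*, and AT3G17110 and *UBC32* (0.95 each) to *PAO*. No gene was nearest to more than 1 member.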

How the data were processed

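Total RNA from whole seedlings was sequenced as paired reads of 90 bases. Per the submitters' processing notes and the study's methods, the authors checked reads with FastQC, aligned them to TAIR10 with TopHat2 2.1.0 and Bowtie2 2.1.0, counted them per gene with featureCounts 1.4.5 and compared groups with DESeq2 1.14.1. The deposited counts are raw whole-number counts per gene, in 1 table per temperature. The deposited gene lengths were used for CPM per kb. The authors' table of normalized values was not used. The annotation release and strand setting of the counting are not given in the sources used here, so reads of overlapping genes may be assigned either way.

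The 8 libraries held 7379650 to 15733741 counts. Counts were scaled by TMM and tested with edgeR 4.0.16 (quasi-likelihood, filterByExpr) in R 4.3.3, on the 4 libraries of each of the 4 comparisons of 2 groups and on all 8 for the interaction and the 2 averages, 7 comparisons in all. The replicate number was a block, since the study's methods account for a batch between replicates. Deviations of same-numbered libraries from their group means correlated at 0.655 in Col-0 and 0.610 in *pwr-2* between temperatures. Between genotypes they correlated less, at 0.26 to 0.33, so the block rests on less shared variation in the genotype comparisons. Adjusted p-values (Benjamini-Hochberg) cover all tested genes, with a threshold of 0.05. Log2 CPM used a prior count of 2. The block and the 2 replicates leave few degrees of freedom, so calls rest on edgeR's sharing of spread across genes. Genes named besides the members were those of fixed lists that were called in any comparison, the 2 with the largest fold change of each list at 27 °C and in the *pwr-2* shift, *PWR*, and the 2 genes most correlated with each member. Members and lists were chosen with earlier results of these data known. Alternatives were no block, all 8 libraries in 1 fit, DESeq2 1.42.0 size factors and test, upper quartile scaling, no filter, a minimum of 10 counts per library, organelle genes dropped, and leaving out each library. Gene positions and upstream sequences are from RefSeq TAIR10.1.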

Additional observations from a re-analysis of the deposited data

Results flagged for a closer look

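Of the 8 tested members, 3 had log2 CPM differences between temperatures of opposite sign in the 2 genotypes, in both replicate pairs. *SAG13* had -4.68 and -0.35 in the Col-0 pairs and 3.12 and 3.48 in the *pwr-2* pairs, and a fitted interaction of 8.11 in the 8-library edgeR fit. Its second Col-0 pair is 2 counts against 1, its first rests on Col-0 23 °C replicate 1, and without that library the interaction was 0.83. *SGR1* had -0.79 and -0.16 in Col-0 and 1.07 and 0.21 in *pwr-2*, with a fitted interaction of 1.13. *PAO* had -0.59 and -0.19 in Col-0 and 1.15 and 0.31 in *pwr-2*, with a fitted interaction of 1.13. *PAO* also reversed between the temperatures when *pwr-2* was set against Col-0, with pairs of -0.86 and -0.38 at 23 °C and 0.88 and 0.12 at 27 °C, which is the same interaction of 1.13 seen from the other side. The interaction did not pass for any of the 3 (adjusted p = 0.948 each, edgeR). With 2 samples a group, no test for a library far from the rest of its group could be run.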

How the results depend on the processing

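The number of members past the threshold was 0 at 23 °C and for the average effect of temperature under all alternatives. At 27 °C it was 0, and 2 with the DESeq2 test. For the shift in Col-0 it was 0, and 1 with the DESeq2 test. For the shift in *pwr-2* it was 1, and 0 without the replicate block, 0 with all 8 libraries in 1 fit, 3 with no filter on low counts, 3 with nuclear genes alone and 2 with the DESeq2 test. The member called was *SAG13*, joined by *SAG21* in those last 3 settings (and by *NAP* in the first and second of them), and with at least 10 counts, where *SAG13* is not tested, *SAG21* alone (adjusted p = 0.0367). For the interaction it was 0 under all alternatives that kept every library, and for the average effect of genotype it was 0, and 1 with the DESeq2 test. With 1 library left out it ran from 0 to 1 at 27 °C, from 0 to 1 for the shift in *pwr-2* and from 0 to 1 for the interaction (*SAG21*, without Col-0 23 °C replicate 2), and was 0 elsewhere. The fits on 3 libraries without the block were added after seeing the data. Where an arm then has 1 library, that library is taken to vary like the others.

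Member fold changes were followed only where both replicate pairs had the same sign, a choice that itself makes reversals fewer. The average effect of temperature was left out, and that of genotype was followed for *ORE1*, *NAP* and *NYC1* only. Of 237 such fold changes under alternatives that kept every library none reversed, and of 340 with 1 library left out 12 did. The values over the left-out libraries ran from -8.81 to 3.23 for *SAG13* in the Col-0 shift (reversed at 2.68 and 3.23, without Col-0 23 °C replicate 1), from -0.42 to 0.32 for *SAG101* in the *pwr-2* shift (reversed at 0.31 and 0.32 without *pwr-2* 23 °C replicate 2 and at 0.17 and 0.18 without *pwr-2* 27 °C replicate 1) and from -0.57 to 0.34 for *NYC1* in that shift (reversed at 0.019 and 0.055 with the block, and at 0.34 and 0.18 without it), from -1.32 to 0.19 for *NYC1* between genotypes at 23 °C and from -0.62 to 0.016 for *NYC1* in the interaction. The cause was not tested. Over all genes, the count of calls was 202 at 27 °C and 80 in the *pwr-2* shift in the main fits, 0 in both without the replicate block or with 8 libraries, 0 and 36 with upper quartile scaling, 700 and 685 with no filter, 380 and 416 with at least 10 counts, 149 and 586 with nuclear genes alone, and 931 and 645 with the DESeq2 test. With 1 library left out they ran from 0 to 1684 and from 0 to 224. The genes called in other lists kept their sign in all fits. All lost their call without the replicate block, with 8 libraries and in every 8-library fit with 1 left out, *SAG29*, *SAG113* at 27 °C, *CASP1*, *TIP2;3* and *PWR* also with upper quartile scaling, and *CASP1* with nuclear genes alone. With 1 library left out *TIP2;3* ran from -4.38 to -0.11 and AT2G25625 from 0.92 to 4.01. *NAP*, at 4 to 54 counts, and *SAG13*, at 1 to 485, are the tested members with the lowest counts.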
